A study of Drosophila melanogaster with 13 samples.

Results

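DNA replication and cell cycle genes were followed through the 13 libraries of a study of secondary cells, which are few, large and binucleate and sit among the main cells in the distal epithelium of the male accessory gland of Drosophila. The 40 genes were chosen by their symbols, with earlier results of these data known. All 40 were found among the 16727 genes of the count table. They were ordered by role into 7 groups: the sliding clamp and nucleotide supply (3 genes), the replicative helicase (7), origin licensing (7), G1/S control (9), mitotic entry (7), mitotic exit (4) and the spindle checkpoint (3). RNA came from males aged 5 to 11 days. GFP-positive cells were sorted from protease-treated glands of 3 genotypes, each with 3 libraries. The first, called D1, was D1:GAL4, UAS-GFP; iab-6cocuD1, the second, called miP, was D1:GAL4, UAS-GFP; delta MSAmiP, and the third, D1:GAL4, UAS-GFP alone, was the wild type. All sorted cells therefore carried the D1:GAL4 driver and its GFP, and "D1" below always means the iab-6cocuD1 mutant. Ribosome-bound RNA was isolated with an antibody to GFP from UAS GFP-RPL10Ab, D1:GAL4 males in 3 libraries, and a control immunoprecipitation (IP) from UAS GFP, D1:GAL4 males gave 1 library.

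Before a cell copies its DNA, the origin recognition complex and Cdt1 (dup in flies) load the Mcm helicase on origins, and geminin blocks dup until the next cycle. Entry into S phase is driven by cyclin D with Cdk4, by cyclin E with Cdk2, and by E2F with its partner Dp, which Rbf holds inactive. In fly tissues E2F and Dp are known to drive transcription of PCNA and of the ribonucleotide reductase genes. Cells that become polyploid repeat S phase without division. They keep fzr, the activator of the anaphase-promoting complex used in G1 and in endocycles, and lower the mitotic cyclins CycA, CycB and CycB3, the phosphatase stg (string) and Cdk1. Adult secondary cells are known as polyploid and do not usually divide.

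In units of 1e6, counted reads ran from 18.2 to 26.09 in the sorted libraries, from 11.2 to 21.4 in the ribosome IPs, and came to 3.70 in the control IP. The count of abd-A, the Bithorax gene read here to check the D1 label, was 0.0476, 0 and 0.0938 counts per 1e6 counted reads (CPM) in D1, against 175, 202 and 210 CPM in wild type. No row for MSAmiP was used, so the miP label was not checked in this way. The 11 markers of secondary cells summed to between 375773 and 584362 CPM in D1, between 479037 and 585549 CPM in miP and between 586353 and 599892 CPM in wild type. Replicate 1 stood apart from replicates 2 and 3 in both mutants: its TMM scaling factor was 0.905 in D1, against 1.52 and 1.58, and 0.797 in miP, against 1.01 and 1.06. Results below are therefore given without these libraries where that changes them. In bulk RNA such as this, fewer cells expressing a gene and less RNA per cell cannot be told apart. The labels do not say what separates the replicates of a group, so p-values measure the spread between these libraries.

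Wild-type secondary cells held transcripts of G1/S control genes and few of the mitotic genes. Levels were set between genes as transcripts per 1e6 transcripts (TPM), that is per exonic length. In every wild-type library 11 of the 40 genes reached 1 TPM, of which 6 were among the 9 G1/S control genes. The highest was aur, the Aurora A kinase of centrosome maturation, with 23.2, 16.8 and 18.03 TPM. Dp (9.29 ± 0.759 TPM; SD, n = 3) and E2f1 (9.23 ± 1.11 TPM), the activator E2F, followed at levels within each other's spread. The next were geminin (5.48 ± 0.531 TPM), Bub3 (5.20 ± 0.673 TPM), a checkpoint protein, and E2f2 (4.82 ± 0.438 TPM), the repressor E2F, and these neighbours overlapped as well. The remaining genes at or above 1 TPM were fzr (3.85 ± 0.523 TPM), CycD (3.79 ± 0.358 TPM), Orc4 (1.94 ± 0.268 TPM), Rbf (1.64 ± 0.114 TPM) and dap (1.47 ± 0.115 TPM), the inhibitor of cyclin E with Cdk2. No helicase gene and no gene of the clamp and nucleotide group reached 1 TPM in all wild-type libraries.

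Of the 14 genes of mitotic entry, mitotic exit and the spindle checkpoint, 10 were near the limit of detection in sorted cells of all 3 genotypes, the others being aur, fzr, Bub3 and Bub1. CycA, CycB, CycB3, Cdk1, stg, polo, fzy, pim, thr and BubR1 did not exceed 1.07 TPM in any of the 9 libraries, and 0.432 TPM in wild type. Cdk4 and Mcm5 had 0 counts in each wild-type library. A count of 0 over the group allows up to 3 counts, and such floors cover counting error only. The heat map of levels by library shows these genes as dark rows in the sorted libraries.

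**Figure D1:**
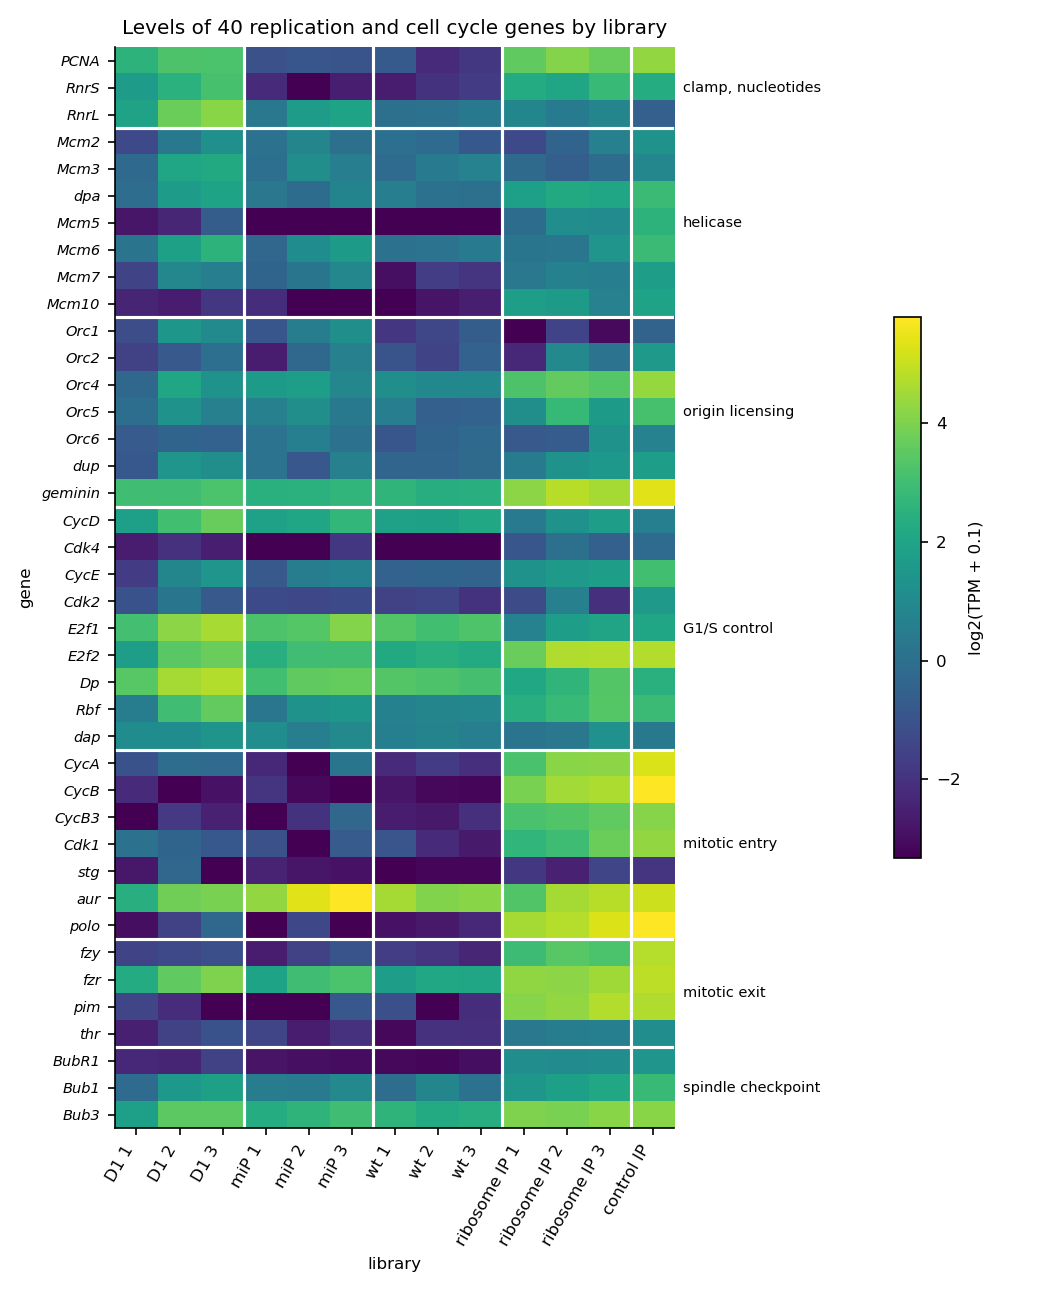
Level of each of the 40 genes (rows, by role) in each of the 13 libraries (columns), as log2(TPM + 0.1). CycA, CycB, CycB3, Cdk1, polo, fzy and pim are dark in the 9 sorted libraries and bright in the 4 immunoprecipitations, and PCNA and RnrS are brighter in the 3 D1 libraries than in the other sorted ones. RnrL, at 3.71 TPM in D1 replicate 1 and 3.82 TPM in miP replicate 3, overlaps between D1 and miP on this scale.

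The comparison of D1 with wild type asked what the iab-6cocuD1 lesion changes in secondary cells. PCNA, RnrS and RnrL, which serve DNA synthesis, were 15.6-, 19.4- and 4.98-fold higher in D1, and the mitotic kinase gene aur was 3.62-fold lower. Of the 40 genes, 32 had enough counts for the test in the sorted cells. The 8 that did not were Mcm5, Mcm10, Cdk4, CycB, CycB3, stg, pim and BubR1. In edgeR's quasi-likelihood test with Benjamini-Hochberg adjustment over all 8222 genes tested, 3 of the 32 were higher in D1 and 1 was lower. Over all genes tested, 9.77% were called (6.14% higher and 3.62% lower), so the members as a list were called about as often as other genes. With a library left out that share ran from 4.27% (without wild-type replicate 3) to 24.3% (without D1 replicate 1), and without replicate 1 of both mutants it was 33.5%. Their median log2 fold change was 0.06, beside 0.00 over all genes tested. At an unadjusted p under 0.05 were 5 of the 32 members and 1848 of the 8222 genes. DESeq2 called 4 members higher and 1 lower, and 15.8% of all genes. These shares over all genes stand beside the counts by role and list given below for this comparison.

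All 3 genes of the clamp and nucleotide group were higher in D1. PCNA, the sliding clamp of the replicative polymerases (chromosome arm 2R, 20261754 to 20262883, minus strand, dm6), had 8.69, 5.74 and 5.13 normalised CPM (CPM of the TMM-scaled library) in D1, against 0.768, 0.174 and 0.288 normalised CPM in wild type. Every D1 library lay above every wild-type library. The log2 fold change was 3.96 ± 0.57 (SE; 15.6-fold; edgeR adjusted p = 0.00185). RnrS, the small subunit of ribonucleotide reductase, which makes deoxyribonucleotides (2R, 11983145 to 11985393, minus strand), had 7.06, 5.02 and 7.36 normalised CPM in D1, against 0.148, 0.350 and 0.484 normalised CPM in wild type. The groups were again apart, and the log2 fold change was 4.28 ± 0.72 (19.4-fold; edgeR adjusted p = 0.00452). RnrL, the large subunit (2L, 10325026 to 10327943, minus strand), had 13.3, 19.5 and 24.6 normalised CPM in D1, against 3.38, 3.60 and 4.52 normalised CPM in wild type. Wild-type cells held more RnrL than RnrS reads, and the D1 libraries still lay above them, with a log2 fold change of 2.32 ± 0.35 (4.98-fold; edgeR adjusted p = 0.00230). These 3 calls held under each of 16 alternative settings, among them leaving out each library in turn, with the highest adjusted p at 0.0154 for PCNA, 0.0310 for RnrS and 0.0193 for RnrL. Per length, the 3 genes summed to 12.7, 28.2 and 35.9 TPM in D1 and to 1.49, 1.23 and 1.55 TPM in wild type.

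**Figure D2:**
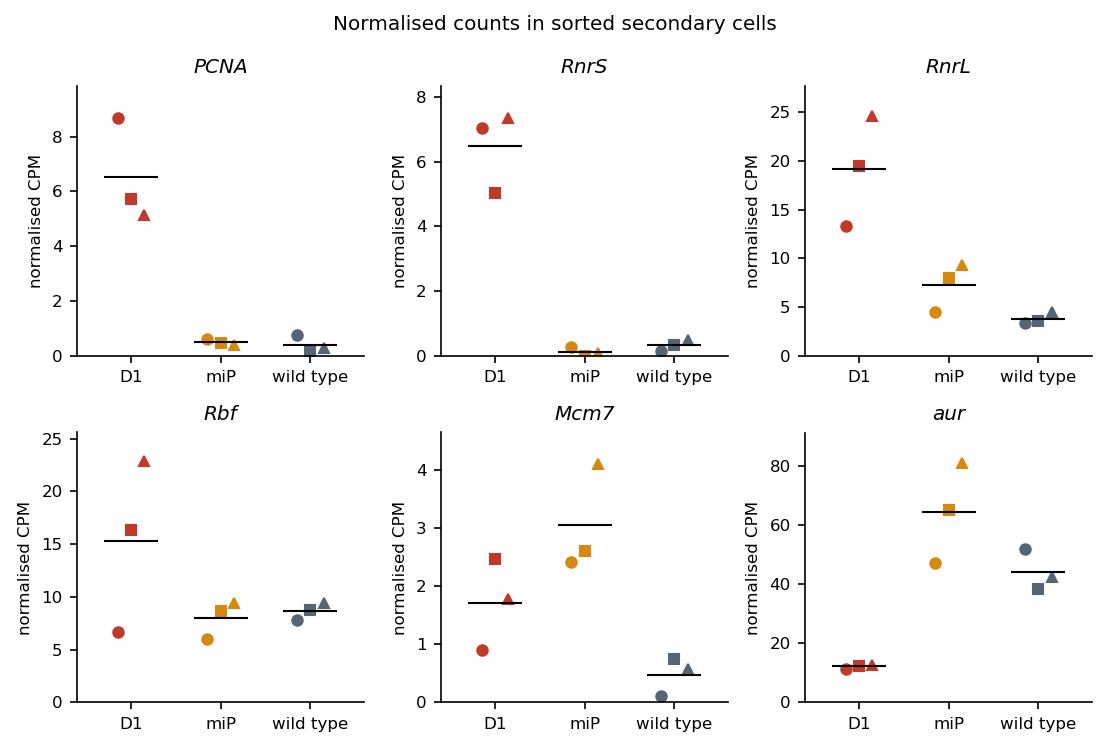
Normalised CPM (linear axis from 0) of 6 genes in D1, miP and wild-type sorted cells, with a point per library (circle, square and triangle for replicates 1, 2 and 3) and a bar at the mean of 3 libraries. The D1 points of PCNA, RnrS and RnrL lie above all others, those of aur lie below all others, and the D1 points of Rbf spread from 6.69 to 22.8.

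With edgeR 0 of 5 tested helicase genes passed, with 1 at an unadjusted p under 0.05, and 1 higher and 0 lower with DESeq2. Mcm2, Mcm3, dpa (Mcm4) and Mcm6, subunits of the Mcm ring, had log2 fold changes between -0.44 and 0.47, and D1 and wild-type libraries overlapped for each. Mcm7 had 0.905, 2.48 and 1.78 normalised CPM in D1, against 0.102, 0.755 and 0.577 normalised CPM in wild type. The D1 libraries were all higher, but the log2 fold change of 1.85 ± 0.68 did not pass (edgeR adjusted p = 0.127), although it did with DESeq2 (adjusted p = 0.0312) and without D1 replicate 1 (edgeR adjusted p = 0.0422). Of the exonic bases of Mcm7, 81.7% lie opposite asRNA:CR45871, an antisense RNA, and the libraries keep no strand, so reads of these genes cannot be told apart. Mcm5 had 3, 4 and 24 counts in the D1 libraries and 0 in each wild-type library. From a floor of 3 counts over the wild-type group this was at least 11.9-fold higher as CPM without TMM factors. The factors were larger in D1 (0.905, 1.52 and 1.58) than in wild type (0.831, 0.813 and 0.798). As normalised CPM this floor is therefore lower. Most of the D1 counts came from replicate 3. Mcm10, a loading factor for the helicase, had 19 counts over D1 and 9 over wild type.

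Among the origin licensing genes 0 of 7 passed with edgeR, 0 of 7 at an unadjusted p under 0.05, and 0 of 7 with DESeq2. Orc4, a subunit of the origin recognition complex, had 1.69, 3.70 and 2.11 normalised CPM in D1, against 5.17, 4.18 and 4.32 normalised CPM in wild type. Its libraries did not overlap, but the log2 fold change of -0.86 was within the error of the test (unadjusted p = 0.0755). Orc1 had a log2 fold change of 1.07, Orc2 of -0.80, Orc5 of -0.17, Orc6 of -0.95 and dup of 0.07, each with overlapping libraries. The log2 fold change of geminin was -0.24, and its sign depended on the scaling and on 1 library: it was 0.33 without scaling factors and 0.00074 without D1 replicate 2. Without replicate 1 of both mutants geminin was called lower in D1 (-0.77, edgeR adjusted p = 0.0197).

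G1/S control genes, the group most abundant in wild type, gave 0 calls among 8 tested with edgeR, with 0 at an unadjusted p under 0.05 and 0 with DESeq2. E2f1 had 74.04, 67.2 and 82.6 normalised CPM in D1, against 92.6, 74.6 and 92.8 normalised CPM in wild type, and Dp had 47.1, 43.2 and 44.7 normalised CPM in D1, against 45.6, 43.2 and 40.8 normalised CPM in wild type. These ranges overlapped, as did those of E2f2, CycD, CycE, Cdk2 and dap. Rbf, the fly retinoblastoma-family protein, had 6.69, 16.4 and 22.8 normalised CPM in D1, against 7.83, 8.71 and 9.47 normalised CPM in wild type. D1 replicate 1 lay below all wild-type libraries and the other D1 libraries above them, and the log2 fold change of 0.82 ± 0.40 did not pass (edgeR adjusted p = 0.260). It passed without D1 replicate 1 (1.18, edgeR adjusted p = 0.00756). Cdk4 had 4, 6 and 3 counts in the D1 libraries and 0 in each wild-type library. From the same floor this was at least 4.97-fold higher as CPM without TMM factors, and less as normalised CPM.

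Of the mitotic genes, aur was the member that fell in D1. It had 11.4, 12.5 and 12.8 normalised CPM in D1, against 52.1, 38.4 and 42.6 normalised CPM in wild type (3R, 11963124 to 11964826, plus strand). The D1 libraries were close to each other and all below wild type, with a log2 fold change of -1.86 ± 0.25 (3.62-fold lower; edgeR adjusted p = 0.00126). Without scaling factors, a setting that raised the median log2 fold change of all genes by 0.72, the value was -1.13 and the call was lost (edgeR adjusted p = 0.0592). The mitotic exit activator fzr had 18.4, 18.5 and 23.9 normalised CPM in D1, against 12.95, 17.3 and 16.7 normalised CPM in wild type; the groups did not overlap, but the log2 fold change of 0.38 had an unadjusted p of 0.153. Bub3, with a log2 fold change of -0.41, and Bub1, with -0.17, did not pass. CycA, Cdk1, polo, fzy and thr, the last being separase, gave log2 fold changes between 0.03 and 1.15, with unadjusted p between 0.336 and 0.978. CycB had 11 counts over D1 and 6 over wild type, CycB3 had 13 over D1 and 21 over wild type, pim (securin) had 9 over D1 and 14 over wild type, and BubR1 had 40 over D1 and 7 over wild type. The phosphatase stg had 4, 36 and 0 counts in the D1 libraries and 2 over wild type, so that its D1 counts came mostly from replicate 2.

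As CPM without TMM factors, summed markers of muscle were higher in every D1 library than in any wild-type library. The sums of the other 4 lists for other cell types overlapped between D1 and wild type. With TMM factors edgeR called 0 of 5 tested muscle markers (2 positive and 3 negative, median log2 fold change -0.86). It called 0 of 15 main cell markers (2 positive and 13 negative, median -0.39), where 9.77% of all genes tested were called. Markers of the male germline, a tissue with dividing cells, summed to between 1.14 and 5.86 CPM in D1 and between 4.63 and 6.55 CPM in wild type over 23 genes, and 7 of them, zpg included, were at 0 in every D1 library. The 16 main cell markers summed to between 549 and 1847 CPM in D1 and between 91.4 and 1000 CPM in wild type, the 12 hemocyte markers to between 269 and 355 CPM in D1 and between 261 and 308 CPM in wild type, and the 7 ejaculatory duct markers to 5.05, 14.6 and 22.6 CPM in D1 and to 5.27, 4.53 and 4.48 CPM in wild type. D1 replicates 2 and 3 were thus above wild type for the duct markers, and D1 replicate 1 was above it for the main cell markers. The 16 muscle markers summed to between 150 and 176 CPM in D1 and between 73.2 and 128 CPM in wild type, with 1 at 0 in every D1 library. Whether any of these had a part in the differences of PCNA, RnrS, RnrL and aur was not tested.

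**Figure D3:**
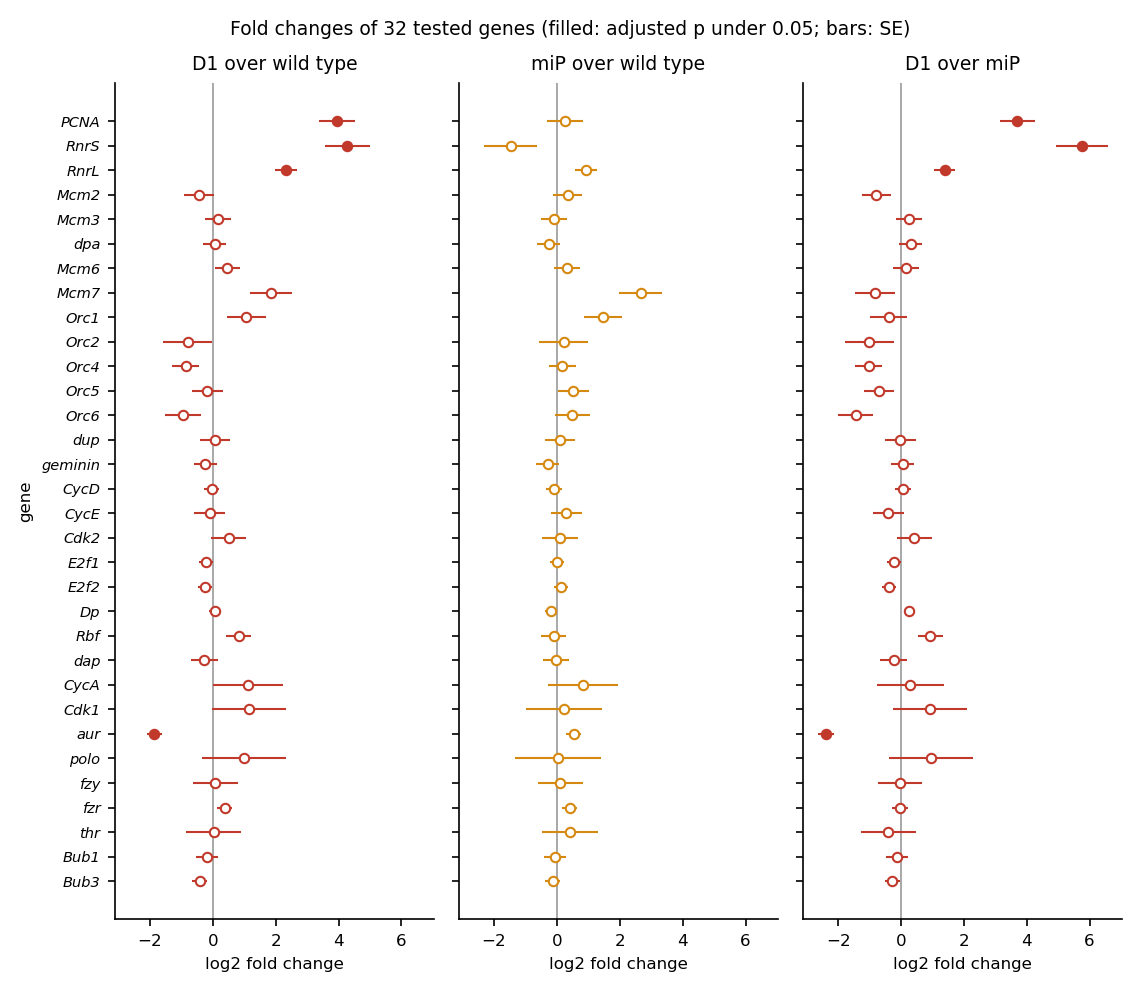
Log2 fold change with SE (bars) of the 32 genes tested in sorted cells, from a fit of 9 libraries, for D1 over wild type, miP over wild type and D1 over miP; filled points passed an adjusted p of 0.05. PCNA, RnrS and RnrL are filled to the right and aur to the left in both D1 panels, and no point is filled for miP over wild type.

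The wider pathway was read from 10 further lists with 209 genes in the table, of which 186 were tested in sorted cells. Of these 4 were higher in D1 than in wild type and 6 were lower, where 9.77% of all genes tested were called, and their median log2 fold change was -0.04. Skp2, the substrate receptor of an SCF ubiquitin ligase that acts in the control of S phase, had 5.90, 10.9 and 8.99 normalised CPM in D1, against 1.02, 0.929 and 0.913 normalised CPM in wild type (log2 fold change 3.16 ± 0.43; edgeR adjusted p = 0.00129). AdSS, adenylosuccinate synthetase of purine synthesis, had 53.2, 77.4 and 92.7 normalised CPM in D1, against 12.5, 13.8 and 14.03 normalised CPM in wild type (2.47 ± 0.25; edgeR adjusted p = 2.95e-04). Both genes were set apart by a wide margin, and both calls held in every alternative tried. Of the exonic bases of Skp2, 17.0% overlap those of CG14645, and the libraries keep no strand. The cohesin acetyltransferase eco had 10.6, 24.2 and 23.2 normalised CPM in D1, against 5.17, 6.50 and 4.76 normalised CPM in wild type, with a log2 fold change of 1.82 ± 0.37 (edgeR adjusted p = 0.0113). Its groups were apart, but the call was lost without wild-type replicate 1 (edgeR adjusted p = 0.0584) or replicate 3 (0.0664). Septin4, a septin, was the fourth (2.65, edgeR adjusted p = 0.0240), lost without D1 replicate 3 (0.0923), wild-type replicate 2 (0.112) or wild-type replicate 3 (0.115).

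**Figure D4:**
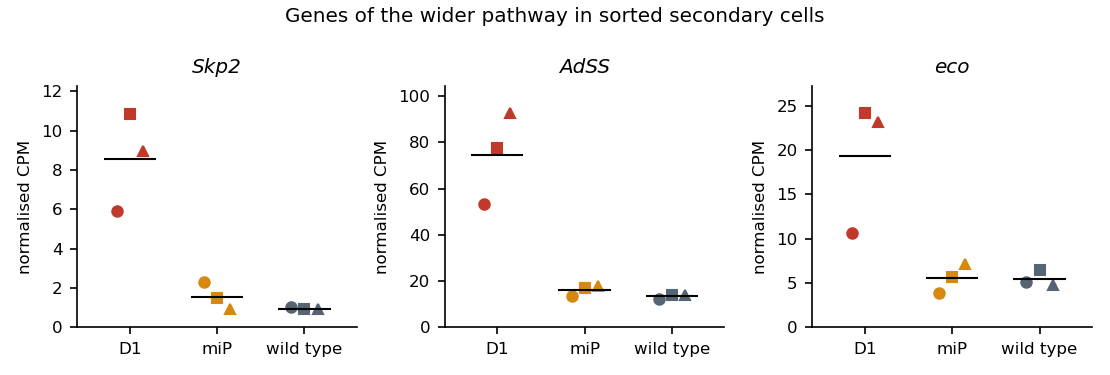
Normalised CPM (linear axis from 0) of Skp2, AdSS and eco in D1, miP and wild-type sorted cells, with a point per library (circle, square and triangle for replicates 1, 2 and 3) and a bar at the mean of 3 libraries. All D1 points lie above the miP and wild-type points.

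Among the lower genes of the wider lists were Zwilch, a kinetochore checkpoint protein (-3.09, edgeR adjusted p = 0.0127), gwl, the Greatwall kinase of mitotic entry (-3.01, 0.0134), vih, a ubiquitin-conjugating enzyme of the anaphase-promoting complex (-1.39, 0.0442), Lam, the B-type lamin (-0.95, 0.0301), and mts, the catalytic subunit of phosphatase PP2A (-0.84, 0.0223). Each of these 5 calls was lost on leaving out D1 replicate 2 or D1 replicate 3, with edgeR adjusted p between 0.0525 and 0.149, and all but that of Zwilch also on leaving out 1 or more of the wild-type libraries. Those of vih, Lam and mts were lost without scaling factors as well. Of the exonic bases of vih, 30.6% overlap those of CG10654. Zwilch and gwl were the largest in fold, at 4.00, 1.36 and 1.19 normalised CPM in D1 against 21.1, 14.98 and 18.6 normalised CPM in wild type for Zwilch, and at no more than 2.03 normalised CPM in any sorted library for gwl. The list of other replisome genes (polymerases, primase, GINS, clamp loader and the like) gave 0 of 36 calls with edgeR, 3 at an unadjusted p under 0.05, and 2 higher and 0 lower with DESeq2. The DREAM and MMB complex list gave 0 of 8 with edgeR, with 0 at an unadjusted p under 0.05 and 0 with DESeq2. The damage checkpoint list gave 0 of 18 with edgeR, 1 at an unadjusted p under 0.05, and 1 higher and 0 lower with DESeq2. Over all genes 1848 of 8222 were at an unadjusted p under 0.05 and DESeq2 called 15.8%. None of these lists exceeded those shares.

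Set against miP, the same 4 members differed in D1: 3 of 32 were higher and 1 was lower, where 10.5% of all genes were called (6.74% higher and 3.81% lower). This comparison shares its D1 libraries with the one above. PCNA had 0.607, 0.475 and 0.416 normalised CPM in miP, so that D1 was higher by a log2 fold change of 3.70 ± 0.56 (12.97-fold; edgeR adjusted p = 0.00231). RnrS had 0.270, 0 and 0.104 normalised CPM in miP, from 6 counts over the group against 530 over D1, with a log2 fold change of 5.75 ± 0.81 (edgeR adjusted p = 0.00146). The ranges of both genes in miP overlapped those in wild type. RnrL had 4.52, 7.94 and 9.31 normalised CPM in miP, all below the D1 libraries, and the log2 fold change was 1.39 ± 0.33 (2.63-fold; edgeR adjusted p = 0.0256). That call was lost without D1 replicate 2 (0.0695), D1 replicate 3 (0.0870), miP replicate 1 (0.0701) or miP replicate 2 (0.0706), and when the fit held these groups alone (0.0787). For aur, miP had 47.4, 65.2 and 81.2 normalised CPM, and D1 was lower by a log2 fold change of -2.40 ± 0.25 (5.27-fold lower; edgeR adjusted p = 2.94e-04), a call that held under all 17 alternatives, as did those of PCNA and RnrS. Rbf did not pass (0.93), but did without D1 replicate 1 (1.29, edgeR adjusted p = 0.00554), where 17.7% of all genes were called. Of the wider lists Skp2 (2.46, edgeR adjusted p = 0.00397), AdSS (2.21, 4.92e-04), eco (1.79, 0.0116) and Septin4 (2.82, 0.0185) were higher in D1 than in miP as well, and CTPsyn (-0.97, 0.0347), gwl (-2.39, 0.0371), Lam (-0.85, 0.0458) and mts (-0.77, 0.0295) were lower. The Septin4 call was lost without D1 replicate 3 (0.0670) or miP replicate 2 (0.0621), while those of Skp2, AdSS and eco held in all 17 alternatives. The 4 lower calls were less stable: leaving out each library in turn, CTPsyn reached an edgeR adjusted p of 0.115, gwl of 0.124, Lam of 0.144 and mts of 0.103, and each was lost without D1 replicate 2 and without miP replicate 3, among other libraries. All 4 were also lost without scaling factors. With the replicate number as a block those of gwl (0.0712) and Lam (0.0605) were lost, and Zwilch was called lower (0.0128).

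In miP against wild type 0 of 32 members passed with edgeR, where 0.0851% of all genes did (7 of 8222, 0.0243% higher and 0.0608% lower). At an unadjusted p under 0.05 there were 4 (RnrL, Mcm7, Orc1 and aur, each higher in miP), beside 292 of 8222 over all genes. DESeq2 called 1 higher, Mcm7, and 0 lower, where it called 0.426% of all genes. The median log2 fold change of the members was 0.15, beside -0.01 over all genes tested. Mcm7 had 2.43, 2.61 and 4.11 normalised CPM in miP, against 0.102, 0.755 and 0.577 normalised CPM in wild type, so all miP libraries were higher. Its log2 fold change was 2.67 ± 0.69 (edgeR adjusted p = 0.729; DESeq2 adjusted p = 0.0166), with the antisense overlap described above. RnrL had a log2 fold change of 0.92 and aur of 0.54. Without replicate 1 of both mutants RnrL (1.16, edgeR adjusted p = 0.0103), Mcm7 (2.80, 0.0331) and aur (0.72, 0.0254) were called higher in miP, where 11.6% of all genes were called in that fit (361 higher and 632 lower of 8536). PCNA had a log2 fold change of 0.26 and RnrS of -1.48, at a level of few reads, and neither passed.

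In the ribosome IPs, most of the mitotic genes that sorted cells nearly lacked were far higher, as they were in the control IP described below. CycB, cyclin B, had 61.9, 81.9 and 85.1 CPM in the ribosome IPs, against 0.170, 0.0472 and 0.0383 CPM in wild-type sorted cells. The polo kinase gene had 92.7, 95.0 and 129 CPM in the ribosome IPs, against 0.128, 0.189 and 0.383 CPM in sorted cells. CycA had 34.4, 61.2 and 58.5 CPM in the ribosome IPs, against 0.383, 0.708 and 0.498 CPM in sorted cells. These genes did not come near overlapping, with log2 fold changes of 8.19 ± 0.36 for CycB (edgeR adjusted p = 1.30e-07), 7.19 ± 0.34 for polo (1.99e-07) and 5.02 ± 0.34 for CycA (1.63e-06). Of 39 members tested 21 were higher in the ribosome IPs and 10 were lower, a share like that of all genes, of which 80.6% were called (49.1% higher and 31.5% lower). The median log2 fold change was 0.60 for the members and 0.76 for all genes tested. CPM of the IP comparisons are given without TMM factors, while their fold changes include them. In this fit the factors were 1.62, 1.71 and 1.85 for the ribosome IPs and 0.618, 0.583 and 0.544 for wild type.

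By role, 5 of 6 tested mitotic entry genes were higher in the ribosome IPs (CycA, CycB, CycB3, Cdk1 and polo) and aur was lower, and all 4 mitotic exit genes were higher. CycB3 had a log2 fold change of 5.30, Cdk1 of 3.92, pim of 5.38, fzy (Cdc20) of 4.30 and BubR1 of 5.26, and the calls of these 5 held without each library in turn. Of the 10 genes near the limit of detection in sorted cells, stg stayed low and had too few counts for the test, with 8, 6 and 16 counts in the ribosome IPs and 0, 1 and 1 in sorted wild type. Among replication genes PCNA had 16.6, 21.5 and 14.8 CPM in the ribosome IPs, against 0.638, 0.142 and 0.230 CPM in sorted wild type (log2 fold change 4.15 ± 0.51; edgeR adjusted p = 8.10e-05), and RnrS had 10.1, 7.71 and 12.2 CPM in the ribosome IPs, against 0.128, 0.283 and 0.383 CPM in sorted wild type (3.63 ± 0.52; 1.98e-04). Mcm5 had 254 counts over the ribosome IPs and 0 over sorted wild type, at least 120-fold higher as CPM. Cdk4 had 101 over the ribosome IPs and 0 over sorted wild type, at least 47.6-fold higher. Both floors are of CPM without TMM factors, and are lower with the factors of this fit. Replication genes went both ways. Of 3 clamp and nucleotide genes 2 were higher and RnrL was lower. Of 7 helicase genes 3 were higher (Mcm5, Mcm7 and Mcm10) and 3 lower (Mcm2, Mcm3 and Mcm6). Of 7 origin licensing genes 2 were higher (Orc4 and geminin) and Orc1 was lower. Leaving out each library in turn, the calls of RnrL, Mcm2, Mcm6, Mcm7, Orc1 and geminin were lost at least once. Genes of G1/S control were split as well, with 4 of 9 higher (Cdk4, CycE, E2f2 and Rbf) and 4 lower. The calls of CycE, E2f2 and Rbf were also lost at least once. E2f1 had 13.2, 25.3 and 27.2 CPM in the ribosome IPs, against 76.9, 60.7 and 74.1 CPM in sorted wild type. As normalised CPM the values of E2f1 were 8.20, 14.9 and 14.7 in the ribosome IPs and 125, 104 and 136 in sorted wild type (log2 fold change -3.26 ± 0.27; edgeR adjusted p = 5.60e-06). Dp (-2.04), CycD (-2.31) and dap (-1.57) were also called lower. Without scaling factors, which raised the median of all genes by 1.56, E2f1 was the member still called lower (1 of 39), while dap came to 0.02 and aur to 0.05. In the wider lists 16 of 22 kinetochore genes were higher and 4 lower, 20 of 28 spindle and cytokinesis genes were higher and 6 lower, and 6 of 36 other replisome genes were higher and 15 lower. Over all genes tested 49.1% were higher and 31.5% lower.

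Markers of other tissues were high in the same ribosome IPs. The 23 male germline markers summed to between 14673 and 15746 CPM in the ribosome IPs and between 4.63 and 6.55 CPM in sorted wild type, with twe, the meiotic Cdc25 of the testis, at 56.4, 70.6 and 80.9 CPM in the ribosome IPs and no more than 0.498 CPM in sorted wild type. Main cell markers summed to between 16381 and 25062 CPM and those of the ejaculatory duct to between 3107 and 3657 CPM in the ribosome IPs, while the secondary cell markers summed to between 96413 and 169863 CPM. The part of these tissues in the levels of mitotic genes in the ribosome IPs was not tested. Sorted cells and ribosome IPs differed in both the route and the ribosome-bound state, so this comparison alone cannot tell them apart. The control IP, which shared the IP route, is set against the ribosome IPs below.

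**Figure D5:**
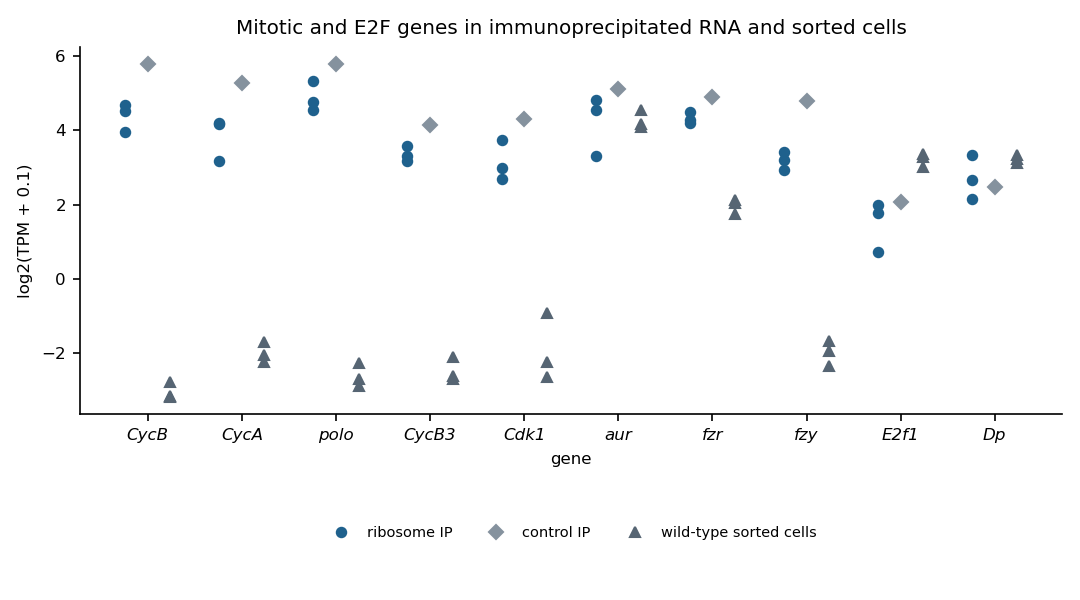
Levels of 10 mitotic and E2F genes as log2(TPM + 0.1) in the 3 ribosome IPs, the control IP and the 3 wild-type sorted libraries, with a point per library. CycB, CycA, polo, CycB3, Cdk1 and fzy lie far lower in sorted cells than in either kind of IP, and the control IP is above the ribosome IPs for these 6 genes.

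The control IP, from glands whose GFP was not fused to a ribosomal protein, held the mitotic genes as well. CycB had 61.9, 81.9 and 85.1 CPM in the ribosome IPs and 179 CPM in the control, CycA had 34.4, 61.2 and 58.5 CPM in the ribosome IPs and 121 CPM in the control, and polo had 92.7, 95.0 and 129 CPM in the ribosome IPs and 177 CPM in the control. Each of these was highest in the control. With edgeR 0 of 40 members passed in the comparison of the ribosome IPs with the control, where 3.52% of all genes did (3.25% higher and 0.267% lower). DESeq2 called 0 as well, where it called 8.85% of all genes. At an unadjusted p under 0.05 there were 7 of 40, a share like that of all genes (2565 of 12723). RnrL was higher in the ribosome IPs (3.89-fold), and Mcm5 (-1.32), Mcm6 (-1.73), CycE (-0.94), CycA (-0.86), CycB (-0.84) and fzy (-1.05) were lower. The median log2 fold change of the 40 was -0.26, beside 0.11 over all genes tested, and 26 of 40 were negative. The control is a single library and the shallowest, assumed here to vary like the ribosome IPs, and without ribosome IP replicate 1 the counts were 0 higher and 3 lower (Mcm6, CycE and fzy), where 15.2% of all genes were called. Without ribosome IP replicate 2 5.83% of all genes were called, and without replicate 3 only 1 gene of 12289 (0.00814%). The share of all genes called thus depended strongly on which ribosome IP was left out.

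Of the genes called in D1, PCNA, RnrS and aur did not pass an unadjusted p of 0.05 between the ribosome IPs and the control. RnrL did, as did 2565 of all 12723 genes tested. PCNA had 22.7 CPM and RnrS 8.38 CPM in the control, inside or near the ranges of the ribosome IPs given above, with log2 fold changes of 0.03 for PCNA and 0.64 for RnrS. RnrL had 5.91, 3.88 and 4.70 CPM in the ribosome IPs, against 1.62 CPM in the control, from 6 counts there. The aur gene had 20.7, 43.0 and 48.5 CPM in the ribosome IPs, against 58.4 CPM in the control. In the same fit 4 of 11 secondary cell markers were higher in the ribosome IPs (iab-8, CG9029, lectin-46Ca and CG17575, with log2 fold changes between 3.78 and 6.38). DESeq2 called 8 of 11 higher. Without ribosome IP replicates 1, 2 and 3 in turn edgeR called 9, 6 and 0 of 11 higher, where 15.2%, 5.83% and 0.00814% of all genes were called. The germline markers, which summed to 24479 CPM in the control, gave 0 of 23 calls with edgeR, with 0 at an unadjusted p under 0.05 and 0 with DESeq2. Of the wider pathway lists 5 of 204 genes were higher in the ribosome IPs, where 3.25% of all genes were called higher, so these lists did not stand out. The genes were Kmn1 (4.48), Blm (2.46), Septin2 (1.71), mts (1.54) and Roc1a (1.36). Without ribosome IP replicates 1, 2 and 3 in turn 15 of 204, 6 of 202 and 0 of 202 were higher, and 4, 0 and 0 were lower.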

How the data were processed

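The authors deposited whole-number counts per gene with no normalisation, and STAR, HTSeq and dm6 are named in the submitters' processing notes (versions not given in the sources used here). Per the labels, 2 ng of RNA went into each oligo(dT)-primed SMARTer and Nextera XT library, read as single ends of 100 nt, which keeps neither strand nor molecular barcodes. The table held 16727 genes and 13 libraries, with 0 columns left unassigned.

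The 40 members matched by symbol (36) or by a synonym (4: Cdk1, Cdk2, E2f1 and fzr). Positions, exonic lengths and overlaps came from the Ensembl release 115 annotation of the dm6 assembly, in which 16585 of the 16727 genes had a match. TPM used these lengths. Genes were tested by quasi-likelihood in edgeR 4.0.16 (R 4.3.3) after filterByExpr and TMM scaling, and p-values were adjusted by Benjamini-Hochberg over all genes tested, with calls at 0.05. The 9 sorted libraries were fitted together. The ribosome IPs were fitted with the 3 wild-type libraries, and in another fit with the 1 control. Each SE is the log2 fold change divided by the root of its F value. Python 3.11.15, pandas 2.3.3, numpy 2.4.6 and matplotlib 3.10.9 prepared tables and figures. The code of the fits was also run on simulated counts, drawn with the spread that edgeR estimated here. In those counts no replicate stood apart, so the run cannot show how the fits behave with such libraries.

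Members, lists and markers were chosen with earlier results of these data known. Every member is accounted for, and those past 0.05 among sorted genotypes are given per library. Of the other lists up to 4 genes past 0.05 in D1 against wild type and up to 2 per list in other comparisons are named, and 1 gene of these lists is not reported here. Fits were repeated with DESeq2 1.42.0, with RLE or upper-quartile scaling, unfiltered or keeping genes at 5 CPM in 3 libraries, with the compared groups alone, without each library in turn, without replicate 1 of both mutants, and with an exonic length offset or a replicate block. Fits without scaling factors were added after the data were seen. Pairing by replicate number was checked by correlating deviations from group means. Between D1 and miP the same-number r was 0.685, 0.388 and 0.507, each above the limit of 0.1 set for pairing. Replicate 1 stood apart in both mutants, which can itself raise these values. Since the labels do not say what the number marks, whether these libraries are paired is not settled. The planned description of promoter motifs was not run.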

Additional observations from a re-analysis of the deposited data

How the results depend on the processing

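The calls of PCNA, RnrS and RnrL in D1 against wild type, and of PCNA, RnrS and aur in D1 against miP, kept their direction and side of 0.05 in every alternative run. Without replicate 1 of both mutants D1 against wild type gave 5 members higher (Mcm7 and Rbf added) and 2 lower (aur and geminin), where 33.5% of all genes were called, and 3 were higher in miP than in wild type, where 11.6% were. DESeq2 called 1 member higher in miP than in wild type, where it called 0.426% of all genes. Without scaling factors 0 members were lower in D1 than in wild type and 1 was lower in the ribosome IPs than in sorted cells, and with a filter of 5 CPM in 3 libraries 4 were lower there. Of all genes 19%, 80.5% and 83.9% were called in these fits, in the same order. Leaving out each library in turn gave 3 to 5 members higher and 1 lower in D1 against wild type, 2 to 4 higher and 1 lower in D1 against miP, 16 to 21 higher and 7 to 9 lower in the ribosome IPs against sorted wild type, and 0 to 3 lower against the control. Of all genes these fits called 4.27% to 24.3% in D1 against wild type and 6.22% to 17.7% in D1 against miP. For the ribosome IPs the share was 73.9% to 79.2% against sorted wild type and 0.00814% to 15.2% against the control. Signs turned for geminin in D1 against wild type (0.33 without scaling factors, 0.00074 without D1 replicate 2, in a leave-one-out range that begins at -0.77) and, in the ribosome IPs against sorted wild type without scaling factors, for RnrL (0.63), Mcm2 (0.13), Mcm6 (0.52), dap (0.018) and aur (0.055). The causes were not tested.

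With a replicate block the counts were 3 higher and 1 lower in D1 against wild type, 0 and 0 in miP against wild type, 3 and 1 in D1 against miP, and 18 and 8 in the ribosome IPs against sorted wild type. Of all genes tested with the block, 9.97%, 0.0486%, 10.6% and 76.2% were called in these comparisons, in the same order. With the block and the length offset 4 members were higher and 1 lower in D1 against miP, where 20.3% of all genes were called. Rbf was the fourth (0.87, edgeR adjusted p = 0.0150). The offset alone also called Rbf (0.90, edgeR adjusted p = 0.0324), where 18.2% of all genes were called. The block alone changed no call of a member among sorted genotypes. In the other pairs of groups the same-number r was -0.218, -0.0102 and -0.293 between D1 and wild type and -0.0125, 0.405 and -0.348 between miP and wild type. Between the ribosome IPs and wild type it was -0.00207, 0.0550 and -0.0843. No paired analysis was possible for the ribosome IPs against the control because they share fewer than 2 numbers.

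Without scaling factors the median log2 fold change of all genes moved by 0.72 in D1 against wild type, 0.23 in miP against wild type, 0.49 in D1 against miP, 1.56 in the ribosome IPs against sorted wild type and -0.38 against the control. The share of calls that were higher was 62.9% with TMM factors and 92.6% without factors in D1 against wild type, 28.6% and 0% in miP against wild type, 63.9% and 89.1% in D1 against miP, 60.9% and 87.2% in the ribosome IPs against sorted wild type, and 92.4% and 66.0% against the control. Genes under about 1 CPM, most mitotic members of sorted cells among them, are limited by depth.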
